A study of Arabidopsis thaliana with 8 samples.

Results

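The cytosolic small heat shock proteins described here are 8 Arabidopsis thaliana genes. They were taken by locus, each with a probe set that the array's gene table assigned to it alone: HSP17.6C-CI (AT1G53540), HSP17.6B-CI (AT2G29500), HSP17.4-CIII (AT1G54050), HSP18.5 (AT2G19310), HSP15.7 (AT5G37670), HSP14.2 (AT5G47600), HSP15.4 (AT4G21870) and HSP21.7 (AT5G54660). They are 8 of 13355 genes with a probe set of their own, and 8 of 22746 probe sets tested. HSP15.7 is a peroxisomal protein, so the name of the group does not cover it strictly.

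RNA was measured on 8 Affymetrix arrays of whole seedlings grown in vitro for 3 weeks in long days at 22 °C. The heat no-recovery plants had spent 30 h at 37 °C and were sampled directly, with mock no-recovery plants kept at 22 °C as their control. The heat recovery plants had the same stress and then 2 days at 22 °C, with mock recovery plants sampled at that later time. Each group had 2 biological replicates, and the labels name neither an accession nor a genotype and do not say what separated the replicates. The p-values therefore measure the spread between these samples.

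Small heat shock proteins are chaperones built around an alpha-crystallin domain that assemble into oligomers. They bind proteins that unfold in the heat, without using ATP, and hold them until ATP-dependent chaperones such as HSP70 and the disaggregase HSP101 refold them. Plants have several classes, named by sequence and by compartment, and heat shock transcription factors switch most of them on through heat shock elements in their promoters. Class I and class III proteins act in the cytosol and nucleus. HSP18.5, HSP14.2, HSP15.4 and HSP21.7 carry the same domain and are placed outside these classes.

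Array values are on a log2 scale, so that 1 unit is a doubling, and values under 2.3 were read as the floor of the signal. Median values of the arrays ran from 5.04 to 5.11, and replicates correlated at 0.995 to 0.996 across probe sets. Green-tissue markers were strong (3 of 6 measured), with a summed log2 level of 14.15 to 14.20 on heat no-recovery arrays against 15.52 to 15.57 on mock no-recovery arrays. After recovery it was 15.42 to 15.46 on heat arrays against 15.50 to 15.54 on mock arrays. The 3 markers differed widely directly after heat, with log2 changes of -0.56 for RCA, -1.63 for LHCB4.1 and -3.64 for LHCB4.2. Their sum therefore does not stand for each of them. The summed level of 3 root markers was 8.81 to 9.04 on heat no-recovery arrays against 11.29 to 11.93 on mock no-recovery arrays, and 11.94 to 12.16 on heat recovery arrays against 11.70 to 12.09 on mock recovery arrays. PYK10 gave nearly all of it, since EXPA7 and EXPA18 lay at the floor on all arrays. Of 6 seed markers 0 were measured. The control probe set for the large ribosomal RNA of the cytosol read 13.49 ± 0.11 in heat no-recovery plants against 11.58 ± 0.21 in mock no-recovery plants (SD, n = 2 each). The difference between the 3' and 5' GAPDH control probe sets, a measure of RNA degradation, was taken from 1 of 2 such pairs. It was 3.10 and 2.80 on heat no-recovery arrays against 3.17 and 3.22 on mock no-recovery arrays. On recovery arrays it was 3.18 and 3.25 for heat against 3.24 and 2.73 for mock. The second pair lay closer together. Its means (3' and 5') were 12.61 and 11.78 in heat no-recovery plants, and 12.05 and 11.07 in mock no-recovery plants. The size of the difference thus depends on the pair. The part of these differences in the results below was not tested.

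Plants taken straight from 30 h of heat were set against their mock plants first, to show which of the transcripts respond. Of the 8 genes 6 rose, 1 fell and 1 did not pass the test (limma, Benjamini-Hochberg adjusted p under 0.05 over all probe sets). The rises ran from 3.97 to 10.23 on the log2 scale, and the fall was that of HSP15.4. Over all probe sets 41.0% were called, 21.2% as higher and 19.8% as lower. With dim probe sets left out, 9749 of the 13849 that reached log2 4 on 2 or more arrays were called, again with 7 of the 8 genes. HSP17.6C-CI and HSP17.6B-CI passed this filter through heat arrays only, and HSP14.2 needed its heat no-recovery arrays to pass. The calls of these genes under the filter are therefore no support of their own. Both heat arrays lay above both mock arrays for 6 of the genes and below them for the other 2, as did 30.2% and 29.5% of all probe sets. The median change of the 8 genes was 4.21, and that of all probe sets was 0. In whole seedlings, fewer cells of a type and less RNA per cell cannot be told apart.

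**Figure D1:**
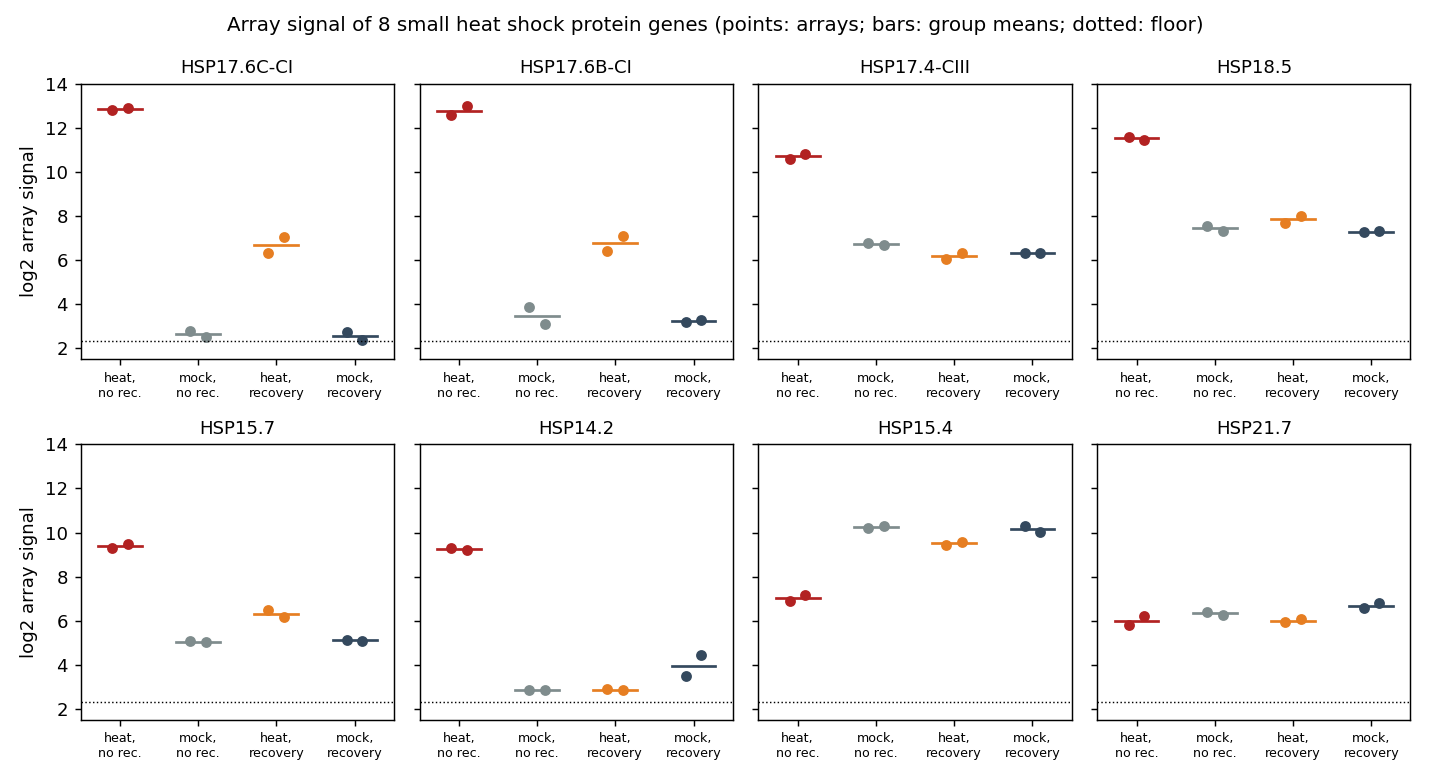
Log2 array signal of each of the 8 genes (one panel each) in the 4 groups. Points are single arrays (2 per group), bars are group means and the dotted line is the floor at 2.3. Heat no-recovery arrays stand above all others for 6 genes and below all others for HSP15.4, and only the class I pair and HSP15.7 stay more than 1 unit above mock on both recovery arrays.

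The class I genes moved furthest. HSP17.6C-CI read 12.82 and 12.88 on the heat no-recovery arrays, against 2.76 and 2.48 on the mock no-recovery arrays. Its signal thus lay close to the floor in mock plants and high on both heat arrays, a log2 change of 10.23 ± 0.28 (SE, n = 2 per group, limma adjusted p = 9.07e-05). HSP17.6B-CI, of the same class, read 12.60 and 12.96 in heat no-recovery plants, against 3.85 and 3.07 in mock no-recovery plants. The change was 9.32 ± 0.37 (limma adjusted p = 0.000197). Among the 14941 probe sets above the floor on all 4 arrays, these were the second and the fifth largest rises, with ranks 2 and 5. As linear ratios they were 1200-fold and 639-fold, and such ratios depend on how the background of the dim mock arrays was removed. With values under log2 4 set to 4, the rises were 8.85 for HSP17.6C-CI and 8.78 for HSP17.6B-CI. All mock no-recovery readings of the pair lay under 4, so this setting gives both genes the same base. The rises then differ only by the levels on the heat arrays.

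HSP14.2 came next. It read 9.28 and 9.23 on the heat no-recovery arrays, against 2.85 on both mock no-recovery arrays, a change of 6.41 ± 0.33 (limma adjusted p = 0.000361). The mock value recurred on 1 heat recovery array and was the lowest reading of this probe set on any array, so the rise is measured against that lowest reading. With values under log2 4 set to 4 the rise was 5.26 (limma adjusted p = 0.000121).

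HSP15.7, HSP18.5 and HSP17.4-CIII had a clear signal in unstressed plants and rose by similar amounts. HSP15.7, which serves the peroxisome, read 9.31 and 9.46 in heat no-recovery plants, against 5.09 and 5.01 in mock no-recovery plants. The groups were far apart, with a change of 4.33 ± 0.12 (limma adjusted p = 8.64e-05), a 20.2-fold rise. HSP18.5 read 11.58 and 11.45 in heat no-recovery plants, against 7.56 and 7.32 in mock no-recovery plants. Its change was 4.08 ± 0.14 (limma adjusted p = 0.000149), or 16.9-fold. HSP17.4-CIII, the class III protein, read 10.59 and 10.79 in heat no-recovery plants, against 6.78 and 6.67 in mock no-recovery plants. Its change was 3.97 ± 0.12 (limma adjusted p = 0.000114), or 15.7-fold. The 95% confidence intervals of these 3 changes overlapped, at 4.02 to 4.65 for HSP15.7, 3.69 to 4.46 for HSP18.5 and 3.64 to 4.30 for HSP17.4-CIII, and the differences between the genes were not tested.

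The other 2 genes did not rise. HSP15.4 read 6.87 and 7.15 in heat no-recovery plants, against 10.20 and 10.28 in mock no-recovery plants. Both heat arrays lay below both mock arrays, and the transcript fell by 3.23 on the log2 scale (SE 0.13, limma adjusted p = 0.000221), so that the signal in mock plants was 9.38-fold that in heat plants. HSP21.7 read 5.78 and 6.19 in heat no-recovery plants, against 6.41 and 6.28 in mock no-recovery plants. The groups did not overlap, yet the change of -0.36 ± 0.17 did not pass the test (limma adjusted p = 0.201), with a 95% confidence interval of -0.82 to 0.11. Without heat no-recovery replicate 1 it was -0.15 (adjusted p = 0.606), and without replicate 2 it was -0.56 (adjusted p = 0.0664). The interval leaves room for a fall of that size and none for a rise like those of the other genes.

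**Figure D2:**
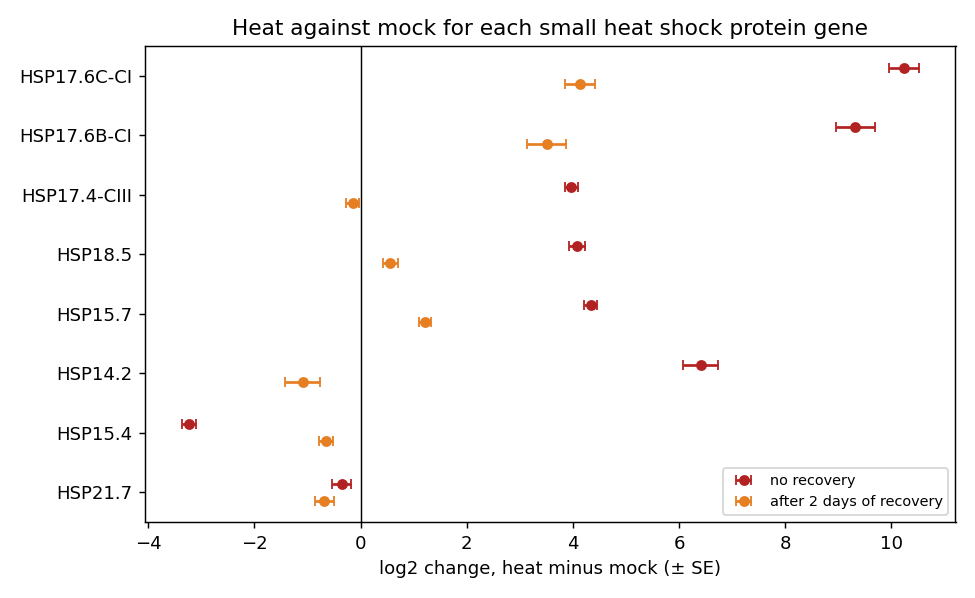
Log2 change (heat minus mock, x axis) of each gene with its SE, without recovery and after 2 days of recovery. Without recovery the changes span -3.23 to 10.23, and after recovery -1.09 to 4.12.

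The second comparison asked what remained 2 days later. HSP17.6C-CI was the 1 member still called, as higher, in a comparison that called 0.237% of all probe sets (0.132% as higher and 0.106% as lower). The heat recovery arrays lay outside the range of the mock recovery arrays for all 8 genes, above it for 4 and below it for 4. Over all probe sets 16.9% lay wholly above and 17.4% wholly below. An unadjusted p under 0.05 was found for 7 of the 8, against 12.7% of all probe sets. The median change of the 8 genes was 0.21, and that of all probe sets was 0.

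HSP17.6C-CI read 6.30 and 7.03 on the heat recovery arrays, against 2.71 and 2.37 on the mock recovery arrays. This difference of 4.12 ± 0.28 (limma adjusted p = 0.0379), or 17.4-fold, was the third largest rise of 15216 probe sets above the floor on these 4 arrays (rank 3). The call was not firm, since it ended when any 1 of the 4 no-recovery arrays or of the 2 mock recovery arrays was left out (adjusted p = 0.0597 to 0.104). Leaving out either heat recovery array kept it (adjusted p = 0.0111 and 0.0142), with the spread of the lone array taken from the other groups. It also ended with only the 4 arrays compared (adjusted p = 0.240) and with the replicate number as a block (adjusted p = 0.105). With values under log2 4 set to 4 the difference was 2.66 (adjusted p = 0.0886).

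HSP17.6B-CI behaved much like its class I partner in size. It read 6.41 and 7.09 on the heat recovery arrays, against 3.20 and 3.28 on the mock recovery arrays, a difference of 3.51 ± 0.37 that missed the threshold over all probe sets (limma adjusted p = 0.0719). HSP15.7 read 6.47 and 6.17 in heat recovery plants, against 5.12 and 5.09 in mock recovery plants, a difference of 1.22 ± 0.12 (limma adjusted p = 0.0646). For both genes each heat array stood well above each mock array. Both passed when dim probe sets were left out, that is, when the test was confined to the 13849 that reached log2 4 on 2 or more arrays, where 4.20% were called (adjusted p = 0.00340 for HSP17.6B-CI and 0.00905 for HSP15.7). They also passed with each array centred on its median (adjusted p = 0.0288 and 0.0323). All 8 genes passed this filter on dim signal, but HSP17.6C-CI and HSP17.6B-CI reached log2 4 on heat arrays only and HSP14.2, apart from 1 mock recovery array, on its heat no-recovery arrays. The calls of the class I pair under the filter are therefore no support of their own. HSP15.7 was also called when heat recovery replicate 1 (adjusted p = 0.0317) or replicate 2 (adjusted p = 0.0173) was left out. The lone array is then assumed to vary like the other groups, and because the heat recovery arrays had spread most, the SE became 0.08 in place of 0.12, so these calls add no support.

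HSP18.5 read 7.67 and 8.0 in heat recovery plants, against 7.26 and 7.29 in mock recovery plants, a difference of 0.56 ± 0.14 (limma adjusted p = 0.230). The heat arrays were the higher ones, by a small amount. HSP17.4-CIII read 6.03 and 6.31 in heat recovery plants, against 6.32 on both mock recovery arrays. Its difference of -0.15 ± 0.12 (limma adjusted p = 0.746) had a 95% confidence interval of -0.48 to 0.18, so that a remainder like that of the class I pair lies outside it.

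HSP14.2 gave 2.89 and 2.85 in heat recovery plants, against 3.47 and 4.45 in mock recovery plants. The heat arrays were back at the lowest reading of the probe set, while the mock arrays stood above the 2.85 of mock plants 2 days earlier. The difference of -1.09 ± 0.33 did not pass the test (limma adjusted p = 0.296). With mock recovery replicate 1 left out it was -1.58 (adjusted p = 0.00196), and with replicate 2 left out -0.60 (adjusted p = 0.0268). In each case the spread of the lone mock array was taken from the other groups, whose readings were nearly identical, so these calls follow from the smaller SE (0.03 in place of 0.33). With values under log2 4 set to 4 the difference was -0.23 (adjusted p = 0.831).

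HSP15.4 read 9.45 and 9.59 in heat recovery plants, against 10.28 and 10.04 in mock recovery plants, a difference of -0.65 ± 0.13 (limma adjusted p = 0.174). HSP21.7 read 5.94 and 6.06 in heat recovery plants, against 6.55 and 6.81 in mock recovery plants, a difference of -0.68 ± 0.17 (limma adjusted p = 0.227). For both genes the heat arrays were the lower ones. The 95% confidence interval was -1.0 to -0.29 for HSP15.4 and -1.15 to -0.22 for HSP21.7, without adjustment for the number of probe sets.

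**Figure D3:**
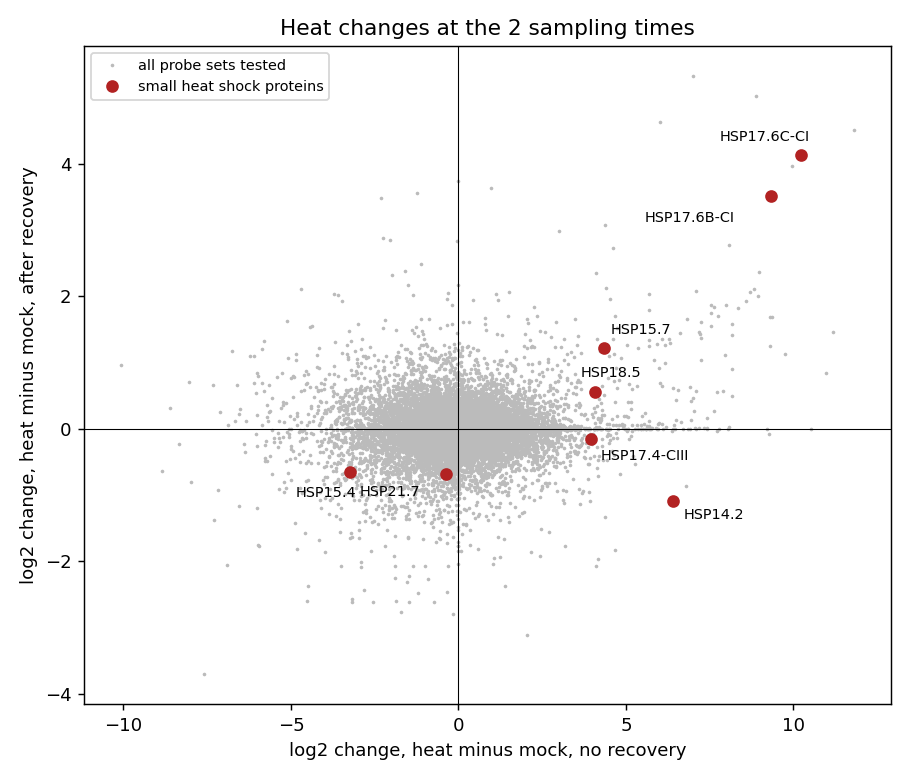
Log2 change (heat minus mock) without recovery (x axis) and after 2 days of recovery (y axis). Grey points are all 22746 probe sets tested, and red points are the 8 genes. HSP17.6C-CI (10.23 and 4.12) and HSP17.6B-CI (9.32 and 3.51) lie far to the upper right, whereas HSP14.2 (6.41 and -1.09) lies below 0 after recovery.

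How much of the rise was left depended on the scale. On the log2 scale HSP17.6C-CI kept 40.3% of its rise, HSP17.6B-CI 37.6%, HSP15.7 28% and HSP18.5 13.8%. On the linear scale of the signal HSP15.7 kept the most, at 7.16%, followed by HSP18.5 at 2.68%, HSP17.6B-CI at 1.40% and HSP17.6C-CI at 1.30%. HSP17.4-CIII and HSP14.2 had no rise left on either scale. These shares are a description of group means and were not tested.

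Set against the stressed plants themselves, 6 genes fell and HSP15.4 rose over the 2 days of recovery. Of all probe sets 39.9% were called, 19.1% as higher and 20.9% as lower. Of the 13849 that reached log2 4 on 2 or more arrays, 9571 were called. HSP17.6C-CI fell by 6.19 (SE 0.28), HSP17.6B-CI by 6.03 (SE 0.37) and HSP14.2 by 6.38 (SE 0.33). HSP17.4-CIII fell by 4.52 (SE 0.12), HSP18.5 by 3.68 (SE 0.14) and HSP15.7 by 3.06 (SE 0.12). HSP15.4 rose by 2.51 ± 0.13, and limma adjusted p for these 7 changes lay between 8.80e-05 and 0.000568. HSP21.7 differed by 0.01 ± 0.17 (limma adjusted p = 1), and its arrays overlapped.

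The heat effect itself was tested for a difference between the times. It changed for 7 of the 8 genes, and was smaller after recovery for the 6 genes that had risen. Of all probe sets 32.3% were called, 15.4% with a higher and 16.9% with a lower effect after recovery. Of the 13849 that reached log2 4 on 2 or more arrays, 8256 were called. For HSP15.4 the effect was less negative after recovery, with a change of 2.58 ± 0.19 (limma adjusted p = 0.00152). HSP21.7 had a change of -0.33 ± 0.25 (limma adjusted p = 0.457).

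Mock plants of the later time were set against those of the earlier time to see what the genes did without stress. Of the 8 genes 0 were called by limma, where 0.0791% of all probe sets were called. An unadjusted p under 0.05 was found for 2 of the 8, against 8.63% of all probe sets. HSP14.2 had the largest difference, 1.11 ± 0.33 (limma adjusted p = 0.453), with 3.47 and 4.45 in the later plants against 2.85 on both arrays of the earlier ones. With values under log2 4 set to 4 it was 0.23 (adjusted p = 1). With mock recovery replicate 1 left out it was 1.60 (adjusted p = 0.00189), and with replicate 2 left out 0.62 (adjusted p = 0.0261), again with the spread of a lone array taken from the other groups. HSP17.4-CIII differed by -0.40 ± 0.12 (limma adjusted p = 0.468), with 6.32 on both later arrays against 6.78 and 6.67 on the earlier ones. The other 6 genes differed by -0.22 to 0.34.

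Recovered plants were also compared with mock plants of the earlier time, and 0 of the 8 genes were called by limma where 0.119% of all probe sets were called. An unadjusted p under 0.05 was found for 6 of the 8, against 12.1% of all probe sets. Without the dim probe sets 4 were called, HSP17.6C-CI, HSP17.6B-CI and HSP15.7 as higher and HSP15.4 as lower. Of those tested 3.03% were called. The class I pair passed that filter through heat arrays only, so its calls under the filter are again no support of their own. HSP17.6C-CI lay at the threshold, with a difference of 4.04 ± 0.28 (limma adjusted p = 0.0502). It was called with mock no-recovery replicate 1 left out (adjusted p = 0.0495) and with heat recovery replicate 1 or 2 left out (adjusted p = 0.0116 and 0.0152). HSP17.6B-CI differed by 3.29 ± 0.37 (limma adjusted p = 0.0872) and HSP15.7 by 1.27 ± 0.12 (limma adjusted p = 0.0764). HSP15.7 was called with heat recovery replicate 1 or 2 left out (adjusted p = 0.0307 and 0.0153). All calls gained by leaving out a heat recovery array rest on a lone array whose spread was taken from the other groups. HSP15.4 differed by -0.72 ± 0.13 (limma adjusted p = 0.164). HSP14.2 was level with the earlier mock plants, at 0.02 ± 0.33 (limma adjusted p = 1).

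Ordered by level, HSP17.6C-CI, HSP17.6B-CI, HSP15.7 and HSP18.5 thus stood highest directly after heat, lower after recovery, and lowest in both mock groups, between which no difference was called. The gap between recovered and mock plants was called for HSP17.6C-CI against the later mock plants, and it missed the threshold for HSP17.6C-CI against the earlier ones and for the other 3 genes against both. HSP17.4-CIII stood highest directly after heat, and none of the differences among the other 3 groups was called. For HSP14.2 the group next to the heat no-recovery plants was the mock recovery group. HSP15.4 had the reverse order, with mock plants of both times highest, recovered plants slightly below and heat no-recovery plants lowest. For HSP21.7 no neighbouring groups differed past the threshold.

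Between the replicates of recovered plants the class I pair differed in the same sense. HSP17.6C-CI was 0.72 higher and HSP17.6B-CI 0.68 higher on heat recovery replicate 2 than on replicate 1. Of the 8 genes 6 were higher on replicate 2, as were 37.7% of all probe sets. The median difference of all probe sets was 0. Probe sets with equal readings on both arrays, as at the floor, count as not higher, so that share is not a like measure for the 8 genes. HSP15.7 was lower on replicate 2, at -0.31.

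Other members of the heat shock system measured here rose with the 6 genes directly after heat. Of 6 small heat shock proteins of organelles 3 were measured and 3 rose (21.2% of all probe sets were called higher there). Their median change was 7.43, or 7.31 with array values under the floor raised to it, since 2 of the 3 lay under the floor on both mock arrays. The gene AT1G52560 (HSP26.5) stood at 9.23 in heat no-recovery plants against 2.29 in mock no-recovery plants (limma adjusted p = 1.17e-05). AT5G51440, of the mitochondrion, stood at 10.27 against 2.21 (limma adjusted p = 1.19e-05) and ATHSP22.0, of the endoplasmic reticulum, at 9.61 against 2.18 (limma adjusted p = 2.96e-05). After recovery 0 of these 3 were called, against 0.237% of all probe sets, and all 3 were within 0.16 of the mock level, at 2.44 against 2.31, 2.20 against 2.18 and 2.34 against 2.18.

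Of 24 listed partner chaperones and co-chaperones 10 were measured and 10 rose directly after heat, again against 21.2% of all probe sets, with a median of 3.64. Hop3, an adaptor between HSP70 and HSP90, stood at 10.12 in heat no-recovery plants against 2.41 in mock no-recovery plants (limma adjusted p = 3.72e-05). HSA32, a protein of lasting thermotolerance, stood at 9.12 against 3.98 (limma adjusted p = 5.46e-05), and AT2G20560, which encodes a DnaJ-type co-chaperone, at 9.42 against 2.40 (limma adjusted p = 9.04e-05). After recovery 0 of the 10 were called (0.237% of all probe sets), with a median of -0.05. The differences of the 10 genes between heat and mock plants then ran from -0.83 for AT3G09440 to 1.69 for AT5G48570. HSA32 stood at 4.64 in heat recovery plants against 4.24 in mock recovery plants, and Hop3 at 2.88 against 2.33. Of 20 heat shock transcription factors and their regulators, 0 had a probe set of their own and they were not analysed here. Of the 6 other cytosolic small heat shock proteins 0 were measured alone, and 2 lay on a probe set shared by several genes.

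The profiles most like the class I pair were sought among 13347 other genes, by the root mean square difference over the 8 arrays after the mock no-recovery mean was taken from each. The members of the pair differed from each other by 0.62 on this measure. Nearest to their mean were cox2 (0.92), a subunit of mitochondrial cytochrome c oxidase, AT5G48570 (0.94), the peptidyl-prolyl isomerase ROF2, and AT2G07741 (0.98). They were followed by nad9 (1.06), a subunit of mitochondrial complex I, and AT2G07722 (1.26). Both AT2G07741 and AT2G07722 lie in the copy of mitochondrial DNA in chromosome 2. After recovery the differences of these 5 genes between heat and mock plants ran from 1.26 to 2.78, below those of the class I pair, the lowest being that of AT2G07722, whose mock arrays lay at the floor. None was called (limma adjusted p = 0.0895 to 0.542).

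**Figure D4:**
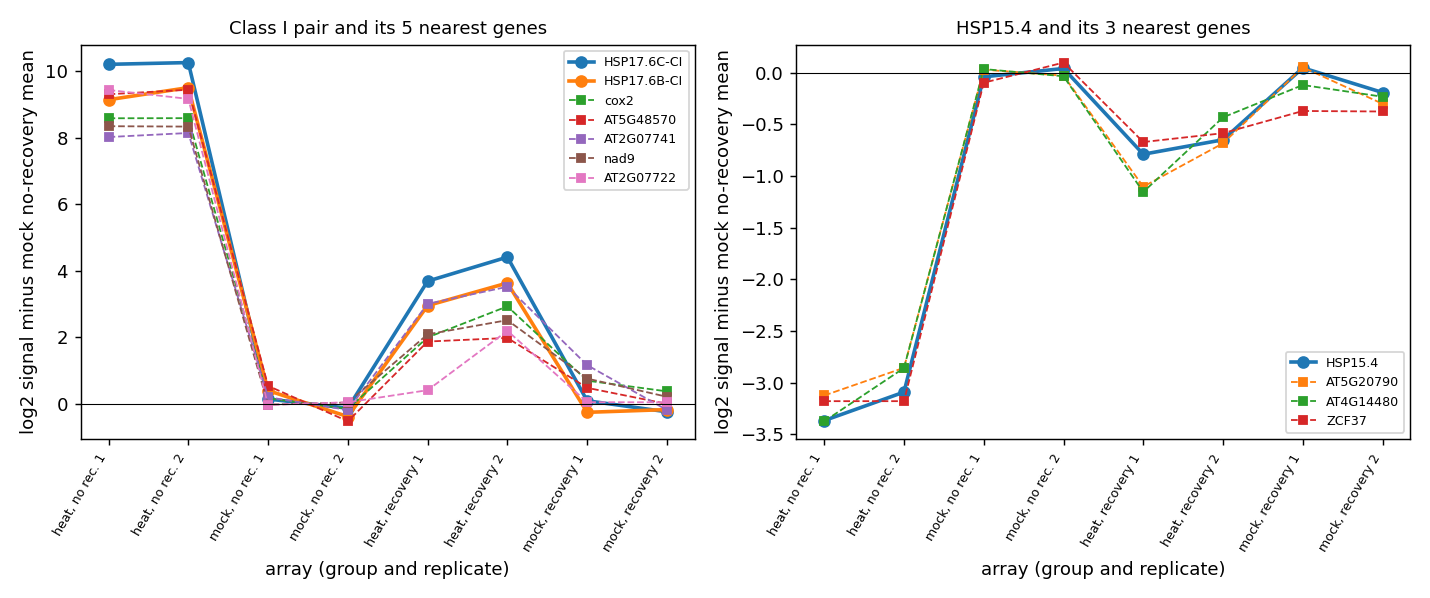
Log2 signal minus the mean of the mock no-recovery arrays (y axis) on each of the 8 arrays (x axis), for the class I pair with its 5 nearest genes (left) and for HSP15.4 with its 3 nearest (right). Lines only join the points of a gene. Left, all genes are at 8 or more on the heat no-recovery arrays and HSP17.6C-CI is highest on the heat recovery arrays; right, all 4 genes are about 3 units lower on the heat no-recovery arrays.

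For HSP15.4 the nearest profiles were AT5G20790 (0.17), AT4G14480 (0.19) and ZCF37 (0.19). The measure grows with the size of the changes, so these values cannot be set against those of the class I pair. AT4G14480 and ZCF37 stood at 2.47 and 2.83 in heat no-recovery plants, near the floor, which limits the size of their fall. AT5G20790 stood at 7.51 in heat no-recovery plants against 10.50 in mock no-recovery plants, and at 9.61 in heat recovery plants against 10.38 in mock recovery plants. Its differences were thus -2.99 ± 0.21 and -0.77 ± 0.21, against -3.23 and -0.65 for HSP15.4. These values are close because the gene was picked by likeness over the same arrays.

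The coding genes on either side of the 8 loci, by their order in RefSeq (TAIR10.1), were examined to see whether the neighbourhood moved too. Of 16 neighbours 8 had a probe set of their own. Directly after heat 3 of these rose and 1 fell, where 41.0% of all probe sets were called, and the changes ran from -1.42 to 2.27. AT5G47610, next to HSP14.2, rose by 2.27 ± 0.11 (limma adjusted p = 0.000293). AT1G53530, next to HSP17.6C-CI, rose by 1.14 ± 0.19 (limma adjusted p = 0.0105), against 10.23 for HSP17.6C-CI itself. AT2G29510, next to HSP17.6B-CI, fell by 1.42 (SE 0.21, limma adjusted p = 0.00643). ARLA1A, a small GTPase gene next to HSP15.7, rose by 1.07 ± 0.19 (limma adjusted p = 0.0113). Of the 4 not called, AT2G19300 and AT4G21880 lay under the floor in every group and AT2G19320 in all but the heat no-recovery plants, so they could show no fall and count for little among the 8. AT4G21865, next to HSP15.4, read 3.63 in both heat and mock no-recovery plants. It read 3.63 again in heat recovery plants and 3.66 in mock recovery plants. Such equal readings may be the lowest that this probe set gives, in which case it could show no fall either. After recovery 0 of the 8 were called.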

How the data were processed

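The authors deposited 1 score per probe set and array. The submitters' processing notes name GCRMA, a method that corrects background from probe sequence, normalizes by quantiles and reports log2 values (version not given in the sources used here). No decimal point was found in any of the 182480 deposited scores, so 1 was put back, behind 2 digits where the score opened with a 1 and behind 1 digit elsewhere. The log2 scale rests on this reading. Opening digits left no doubtful case, since 10444 scores opened with 10 to 15, 0 with 16 to 20 and the other 172036 with 21 or more. Restored values ran from 2.18 to 15.23. Among the 22746 probe sets left after 64 controls were removed, the array's gene table gave 1 gene to 13513, several to 503 and none to 8730.

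limma 3.58.1 in R 4.3.3 fitted 1 mean per group to all 8 arrays (4 residual degrees of freedom) with moderated variances, two-sided, and Benjamini-Hochberg adjustment over all probe sets. Errors are SE of the fit, and n is 2 arrays per group throughout, which limits the precision. The fit was tested on simulated data in which a small set of probe sets above log2 4 in mock no-recovery plants was changed. That test does not cover rises from near the floor, such as those of the class I pair and HSP14.2. Python 3.11.15, pandas 2.3.3 and matplotlib 3.10.9 were used for tables and plots.

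All 8 members are named. Of each further list up to 3 called genes with the smallest p are named, and the 5 and 3 nearest profiles. The members and lists were chosen with earlier results of these data known. The neighbouring genes were added after the values were seen. Alternatives changed the arrays fitted, the dim filter, the floor, the scaling, the variance moderation, the replicate block and single arrays. No sequences of these genes were used here.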

Additional observations from a re-analysis of the deposited data

Results flagged for a closer look

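The effect of heat differed between the sampling times for 7 of the 8 genes, by limma's test of the difference itself. The heat effect after recovery minus that without recovery was -6.10 ± 0.40 for HSP17.6C-CI and -5.81 ± 0.52 for HSP17.6B-CI (adjusted p = 0.00119 and 0.00251). For HSP14.2 it was -7.50 ± 0.47 (adjusted p = 0.00107), a value that takes in the higher mock plants of the later time. It was -4.12 ± 0.17 for HSP17.4-CIII, -3.51 ± 0.20 for HSP18.5 and -3.12 ± 0.17 for HSP15.7 (adjusted p = 0.000468, 0.000923 and 0.000749). HSP15.4 was the 1 gene with a change in the other direction, 2.58 ± 0.19 (adjusted p = 0.00152). Errors are SE of the fit over 8 arrays.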

How the results depend on the processing

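Directly after heat, for the change of the heat effect between the times and within heat plants, 7 of the 8 genes were called under every alternative run, also with any 1 array left out (7 to 7). The heat effect between the times needs all 8 arrays, so it has no value with only the arrays compared. The class I pair passed the dim filter through heat arrays only, and HSP14.2 needed its heat no-recovery arrays to pass. The calls of these genes without dim probe sets, in the counts above and below, are therefore no support of their own. Heat against mock after recovery called 1 of the 8 genes. It called 3 without dim probe sets, 3 with arrays centred, 0 with values under log2 4 set to 4, 0 with robust moderation, 0 with only the arrays compared, and 0 to 2 with 1 array left out. Over all probe sets 54 were called there, against 582 without dim probe sets, 201 with arrays centred and 15 to 431 with 1 array left out. Recovered against earlier mock plants called 0, against 4 without dim probe sets, 1 after quantile normalization, 3 with arrays centred, 1 with a variance trend and 0 to 2 with 1 array left out. Later against earlier mock plants called 0, and 0 to 1 with 1 array left out. Over all probe sets the counts with 1 array left out were 12 to 392 (27 with all arrays) for recovered against earlier mock plants and 4 to 361 (18) for later against earlier mock plants.

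The replicate number as a block left 0 of the 8 genes called after recovery, in place of 1, and over all probe sets 18 in place of 54. Whether the numbers pair the samples is not known. The 6 correlations of the replicate differences between groups ran from -0.134 to 0.154. They show no strong shift shared by replicates of the same number, but cannot tell whether the samples were paired. Of 760 values of single genes under alternatives, 720 kept their side of the threshold without turning sign, 24 became called and 10 lost their call. The other 6 turned sign, all of them small changes with no call and with 1 array left out. With 1 array left out, later minus earlier mock plants ran from -0.25 to 0.084 for HSP17.6C-CI, -0.61 to 0.17 for HSP17.6B-CI and -0.19 to 0.047 for HSP15.4, and heat recovery minus no recovery from -0.20 to 0.22 for HSP21.7. The causes were not tested. Leaving out dim probe sets shortens the list that p-values are adjusted over, and it also changes the moderated variances. For heat against mock after recovery the SE of HSP17.6C-CI became 0.24 in place of 0.28, and that of HSP15.7 0.14 in place of 0.12. Signals near the floor, in mock plants for the class I pair and in all but the heat no-recovery plants for HSP14.2, limit the size of their changes.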
